A study of Homo sapiens with 12 samples.

Results

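Of the 19973 genes in the table, 10 are described here: the EGFR ligands AREG, EREG, HBEGF, TGFA, BTC and EGF, the ERBB receptors EGFR, ERBB2 and ERBB3, and the receptor inhibitor ERRFI1. They were found by their symbols, and each symbol matched 1 gene. The members were selected on their FPKM in the 4 groups, so their levels and changes are given as a description. Where a member met the rule applied to all genes, this is given as a label and not as a test, and no p is given for it. The RNA came from H460 and A549, established human lines of non-small cell lung cancer (NSCLC). Each line was either non-treated (control) or treated for 48 h with 10 µM ISP-I (isovalerylspiramycin I, a macrolide that is a component of the antibiotic carrimycin). There were 3 libraries per group and 12 in all, and the labels give no time and no vehicle for the non-treated cells. Each line is a culture of tumor cells alone, without the other cells of a tumor, and the labels do not say whether the libraries of a group came from separate cultures, so the SD and p values measure the spread between these libraries.

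EGFR ligands are made as membrane-anchored precursors, which proteases of the ADAM family cut to release the soluble factor. A ligand binds EGFR and brings it together with a second EGFR or with another ERBB receptor, whose kinase domains then switch on the RAS/MAPK and PI3K/AKT routes. ERBB2 has no known ligand and acts as a partner, ERBB3 binds neuregulins and signals mainly through PI3K, and ERRFI1 (MIG6) is induced downstream of the receptor and binds the kinase domain to shut it off.

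The values are FPKM, read numbers divided by gene length and sequencing depth. The length is the one listed for the gene, such as 10321 bases for ERBB2 and 1642 for AREG. Whether it matches the transcripts made in these cells is not known, so levels of different genes can be set side by side only roughly. Depth was 14225849 to 17874422 reads on genes per library, and no library repeated another (chi-square per degree of freedom 3.03 to 98.7 between libraries of a group, widest between H460 ISP-I libraries 2 and 3). Library 3 stood apart from the other libraries of its group among A549 controls (28.0 and 32.5, against 3.38 between libraries 1 and 2) and among H460 ISP-I libraries (58.1 and 98.7, against 22.9). Without either library the members that met the call rule in its line were the same. A change is the difference of log2(FPKM + 1), ISP-I minus control, with the limma standard error (SE), and it understates the change of genes near or below 1 FPKM. The median change over all genes tested was -0.15 in H460 and 0.02 in A549, and with median-of-ratios scaling the H460 median was 0.01. To be called, a gene needed more than a 2-fold change together with an adjusted p below 0.05. Under that rule H460 had 1409 calls upward and 2047 downward, which became 1957 and 1511 with median-of-ratios scaling. The share of calls that were higher was thus 40.8% or 56.4%. Ratios and ranges set between the lines use FPKM as deposited, and they depend on the scaling. Median-of-ratios scaling divides FPKM by 0.837 to 0.850 in H460 ISP-I libraries and by 1.01 to 1.09 in the other libraries. The epithelial keratins KRT8, KRT18 and KRT19 were high in all 4 groups, with means from 45.6 to 649.9 FPKM. EPCAM had a mean of at most 1.91 FPKM in any group. CDH1, the cadherin of epithelial junctions, had no read in H460 controls and group means of 4.90 and 0.756 FPKM in A549 controls and A549 with ISP-I. VIM and CDH2, which are mesenchymal markers, had group means of 68.6 to 102.8 and 1.95 to 8.21 FPKM. The lung lineage genes NKX2-1, SFTPC, SFTPB and SCGB1A1 had group means of at most 0.267 FPKM. Of the markers of other cell types, PTPRC, CD3E, PECAM1 and HBB had means of at most 0.0345 FPKM, COL1A1 0.764 to 1.19 and VWF at most 0.303. COL3A1 was 8.60 FPKM in H460 controls and 2.25 after ISP-I, and CD14 was 5.92 and 1.26. The part of these marker genes in the ligand and receptor values was not tested.

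AREG, EREG and BTC lie together with EPGN, a further EGFR ligand, within 486.054 kb of chromosome 4 (hg38 coordinates of the table). EPGN ends 48.356 kb before EREG, EREG 56.387 kb before AREG, and AREG 289.754 kb before BTC. EGF lies on the same chromosome, 35.1 Mb beyond BTC. The promoters of the 3 cluster genes with the widest contrasts in level are shown with that of HBEGF, the ligand past the call rule in both lines. They run from 200 bases before to 30 after the RefSeq start site (GRCh38.p14), 5′ to 3′ on the gene's strand. The windows are chr4:74444936-74445165 (+) for AREG, chr4:74364945-74365174 (+) for EREG, chr4:74308270-74308499 (+) for EPGN and chr5:140346574-140346803 (-) for HBEGF. Capitals mark matches to the cAMP response element CRE (TGACGTCA), its core TGACG on either strand, the TATA box (TATAAA) and the GC box (GGGCGG or CCGCCC):
AREG: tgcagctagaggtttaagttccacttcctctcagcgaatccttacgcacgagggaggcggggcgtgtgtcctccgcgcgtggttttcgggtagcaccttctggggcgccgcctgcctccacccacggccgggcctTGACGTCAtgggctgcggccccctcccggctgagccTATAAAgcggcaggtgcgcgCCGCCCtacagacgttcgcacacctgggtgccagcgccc
EREG: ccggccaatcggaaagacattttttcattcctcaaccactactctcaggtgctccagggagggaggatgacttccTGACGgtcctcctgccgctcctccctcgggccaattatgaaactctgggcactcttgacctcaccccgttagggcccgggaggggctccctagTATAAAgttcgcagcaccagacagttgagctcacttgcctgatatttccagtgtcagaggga
EPGN: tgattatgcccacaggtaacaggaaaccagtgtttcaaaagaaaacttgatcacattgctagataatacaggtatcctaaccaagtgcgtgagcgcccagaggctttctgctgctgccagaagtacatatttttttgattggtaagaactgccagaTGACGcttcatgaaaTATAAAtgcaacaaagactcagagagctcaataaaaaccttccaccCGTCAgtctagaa
HBEGF: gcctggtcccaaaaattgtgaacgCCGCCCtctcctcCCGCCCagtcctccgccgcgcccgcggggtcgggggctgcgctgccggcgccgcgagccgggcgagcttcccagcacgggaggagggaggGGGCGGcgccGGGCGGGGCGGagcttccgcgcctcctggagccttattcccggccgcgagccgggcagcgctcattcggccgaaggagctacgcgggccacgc

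RefSeq promoters of 300 bases (250 before to 50 after the start) were found for 9 of the 10 members, and ERBB3 was not matched. The 3 chromosome 4 promoters shown each held TATAAA, starting at -29 in AREG, -32 in EREG and -29 in EPGN, where the base before the start site is -1. TATAAA on either strand was found in 11.5% of all 35114 promoters of that length. AREG alone among the 9 held the full CRE, at -65, and 1.85% of all promoters did. EREG held the core at -125, EPGN at -44 and again on the other strand at 18, and TGFA at -154, against 24.6% of all promoters. HBEGF held 5 GC boxes, of which those at -63 and -58 overlap, and neither TATAAA nor the CRE core. TGFA held 4 GC boxes, EGFR 3, and AREG, BTC and ERRFI1 1 each. A GC box was present in 45.0% of all promoters. The AP-1 motif TGANTCA was found in EGF at -17 and in ERBB2 at -222, and in 7.71% of all. GC content was 66.3% for AREG, 57.7% for EREG, 37.7% for EPGN and 75.0% for HBEGF, with a median of 58.7% over all promoters. The E-box CACGTG and the EGR motif GCGGGGGCG, which can overlap GC boxes, were searched too and matched none of the 9, against 7.26% and 5.07% of all. A match describes these letters only and was not tied to binding of a factor.

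In H460, AREG, HBEGF, EGFR and ERRFI1 were past the call rule in the higher direction and ERBB2 in the lower direction, 4 and 1 of the 10 members. The background in H460 was 10.5% of 13423 genes called higher and 15.2% called lower. By ranges, 6 members were higher in every ISP-I library than in every control, 3 were lower in every one and only BTC overlapped, where 29.6% of all genes tested were separated upward and 43.1% downward. In A549, 9 members passed the filter on low values (EGF did not), HBEGF was past the rule upward and ERBB2 downward, with backgrounds of 4.2% higher and 3.51% lower among 13705 genes. There, 5 members were separated upward, 3 downward and 2 overlapped (EREG and EGF), against 34.8% and 30.7% of all genes. As the members were chosen on these values, nothing is read from their counts against those shares. The pseudocount sets several of the H460 entries: with a pseudocount of 0.1, and with limma voom on the recovered reads, EREG and TGFA were also past the rule upward and EGF and ERBB3 downward, giving 6 and 3, and ERBB3 was added downward in A549, giving 2.

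**Figure D1:**
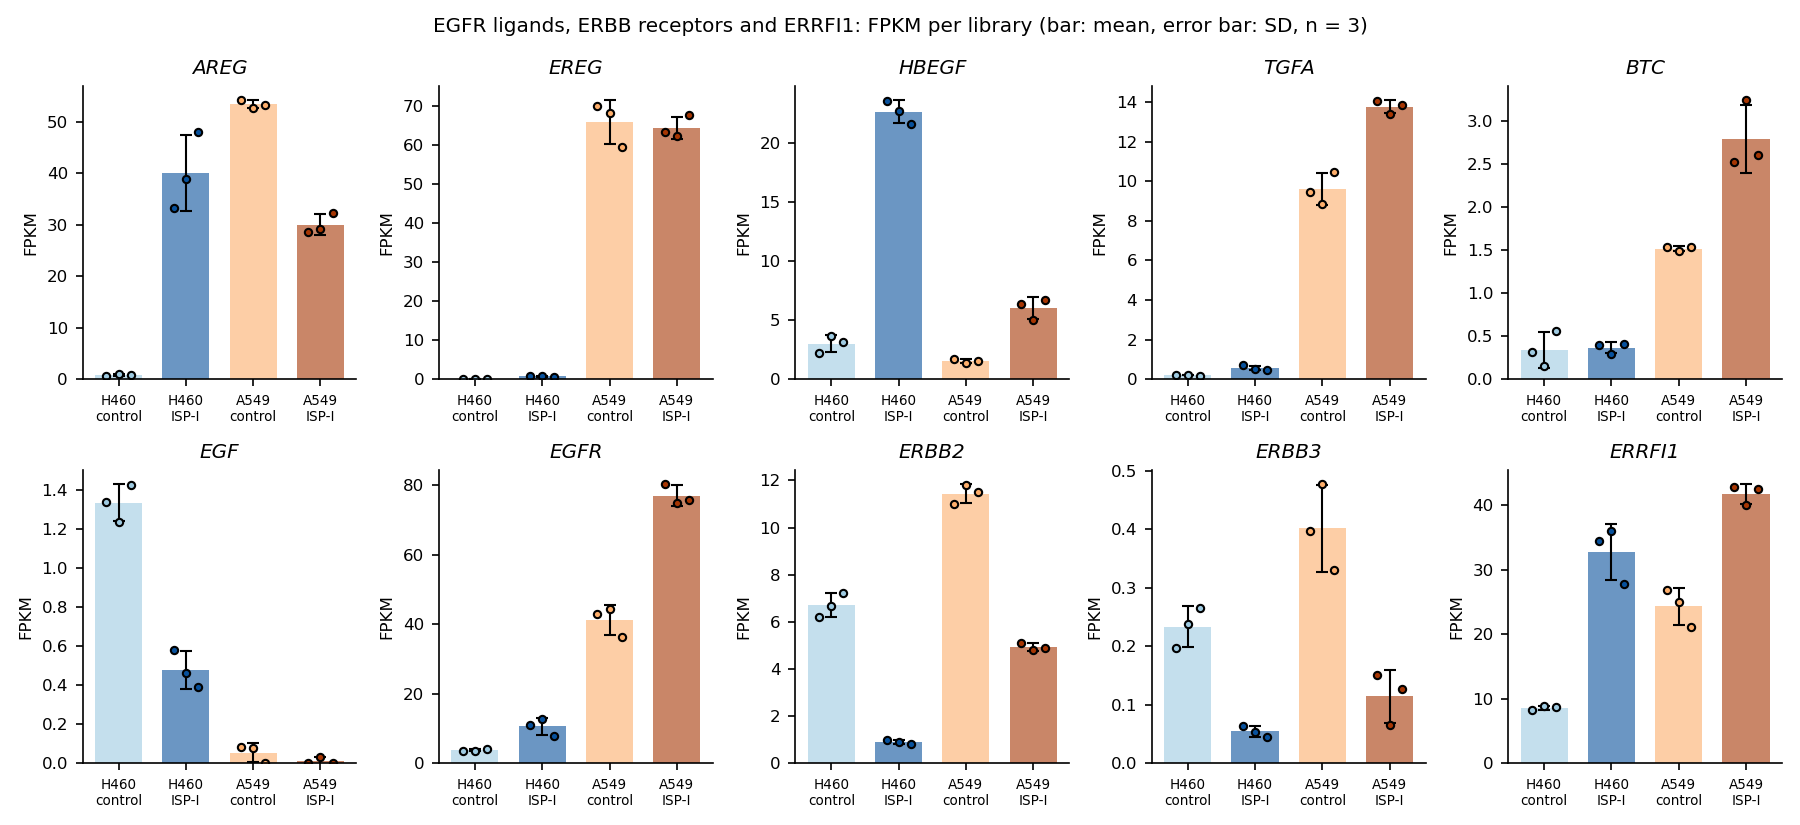
FPKM of the 10 members in each of the 12 libraries (points), with the group mean (bar) and SD (error bar, n = 3), on a separate linear axis for each gene. AREG was near 0 in H460 controls only, EREG near 0 in all H460 libraries, and ERBB2 and ERBB3 were lower after ISP-I in both lines.

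AREG, which encodes amphiregulin, stood out in H460: its mean was 49.7 times the control level after ISP-I, while in A549 it was 0.563 of the control level. The 3 H460 control libraries had 0.635, 0.962 and 0.818 FPKM, from 15 to 24 reads each. After ISP-I they had 33.3, 38.8 and 48.0 FPKM. The groups were far apart, with means of 0.805 ± 0.164 and 40.0 ± 7.42 FPKM (SD, n = 3) and a log2 change of 4.50 (SE 0.152). In bulk RNA, more cells with AREG and more AREG per cell cannot be told apart. A549 controls had 54.2, 52.7 and 53.2 FPKM, and A549 ISP-I libraries had 28.6, 29.1 and 32.4. These groups did not overlap either, with means of 53.3 ± 0.784 and 30.02 ± 2.03 and a log2 change of -0.81 (SE 0.0686). The order of the group means was H460 control, A549 ISP-I, H460 ISP-I and A549 control, and no neighbours in that order overlapped. Control A549 thus held 66.3 times the AREG of control H460, whereas after ISP-I H460 held 1.33 times the AREG of A549. This order, the ranges and the ratios are those of FPKM as deposited. Median-of-ratios scaling raises H460 ISP-I levels toward those of A549 controls, so the separation of these groups is not secure.

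HBEGF, heparin-binding EGF-like growth factor, was higher after ISP-I in every library of both lines. H460 controls had 2.26, 3.70 and 3.14 FPKM, and the treated cells 23.6, 22.8 and 21.7. The ratio of the means was 7.48, and the log2 change was 2.57 (SE 0.148). A549 controls had 1.74, 1.41 and 1.56 FPKM against 6.38, 5.03 and 6.74 with ISP-I, a ratio of 3.85 and a log2 change of 1.45 (SE 0.111). No group overlapped another. H460 held 1.93 times the A549 level in controls and 3.75 times after ISP-I, the reverse of the order seen for AREG, EREG, TGFA and BTC in controls.

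EREG (epiregulin) differed mainly between the lines. A549 had 70.1, 68.2 and 59.6 FPKM in controls and 63.3, 62.4 and 67.7 after ISP-I, and these ranges overlapped with a log2 change of -0.03 (SE 0.0803). H460 controls had 0.0365, 0.0461 and 0.0822 FPKM, which were 3 to 7 reads per library. H460 with ISP-I had 0.754, 0.977 and 0.625 FPKM from 53 to 93 reads, above every control, while treated A549 held 82.1 times that level. The summed reads were 14 and 223, a ratio of 14.3 in mean FPKM (95% exact interval 8.37 to 26.7, counting error only), and the log2 change was 0.75 (SE 0.0822).

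TGFA, transforming growth factor alpha, was another ligand of the A549 cells. A549 had 9.46, 8.84 and 10.5 FPKM in controls and 14.1, 13.4 and 13.8 after ISP-I, a ratio of 1.44 and a log2 change of 0.48 (SE 0.0768). H460 had 0.212, 0.214 and 0.191 FPKM in controls and 0.705, 0.537 and 0.466 after ISP-I, a ratio of 2.77 and a log2 change of 0.38 (SE 0.0733). Both lines were separated upward, and A549 stayed above H460 by 46.6 times in controls and 24.2 times after ISP-I. BTC (betacellulin) was low throughout. Its A549 libraries went from 1.54, 1.49 and 1.53 FPKM to 2.52, 3.24 and 2.60, a ratio of 1.84 and a log2 change of 0.58 (SE 0.0911). Its H460 libraries, at 0.314, 0.149 and 0.557 in controls and 0.401, 0.294 and 0.406 after ISP-I, overlapped with a log2 change of 0.04 (SE 0.108).

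EGF itself was the only ligand member whose H460 libraries were lower after ISP-I. Control H460 had 1.34, 1.23 and 1.42 FPKM and treated H460 0.579, 0.464 and 0.389. The groups did not overlap, at 0.358 of the control mean and a log2 change of -0.66 (SE 0.0840). A549 had 9, 9 and no reads in controls and no read, 4 and no read after ISP-I, and a count of 3 reads stands for about 0.03 FPKM of this gene. Summed reads were 18 and 4, a ratio of 0.216 relative to depth (95% exact interval 0.0532 to 0.656, counting error only). The ranges overlapped, so no change of EGF in A549 is read from these few reads.

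Summed over the 6 ligand members, the FPKM was 5.77 ± 0.849 in H460 controls and 64.9 ± 6.15 after ISP-I (SD, n = 3), and 132 ± 5.45 and 117.1 ± 5.37 in A549. HBEGF made up 52.1% of the H460 control sum and AREG 13.9%, and after ISP-I AREG made up 61.3% and HBEGF 35.3%. In A549, EREG and AREG together dominated both groups. The share of AREG was 40.4% in A549 controls and 25.6% after ISP-I, that of EREG 49.9% and 55.0%, and that of TGFA 7.28% and 11.8%. The ratio of AREG to EREG was 0.772 to 0.893 in A549 control libraries and 0.453 to 0.478 in A549 ISP-I libraries. EPGN, the ligand epigen and no member here, was by far the most abundant EGFR ligand mRNA in control H460. With EPGN counted as the seventh, it held 89.7% to 93.9% of the H460 control sum and 38.0% to 54.5% after ISP-I. Its own level was 74.2, 54.9 and 63.0 FPKM in H460 controls and 58.6, 76.5 and 43.9 after ISP-I, overlapping ranges with a log2 change of -0.13 (SE 0.209, adjusted p = 0.607). In A549 EPGN had at most 0.128 FPKM in any library and was not tested.

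**Figure D2:**
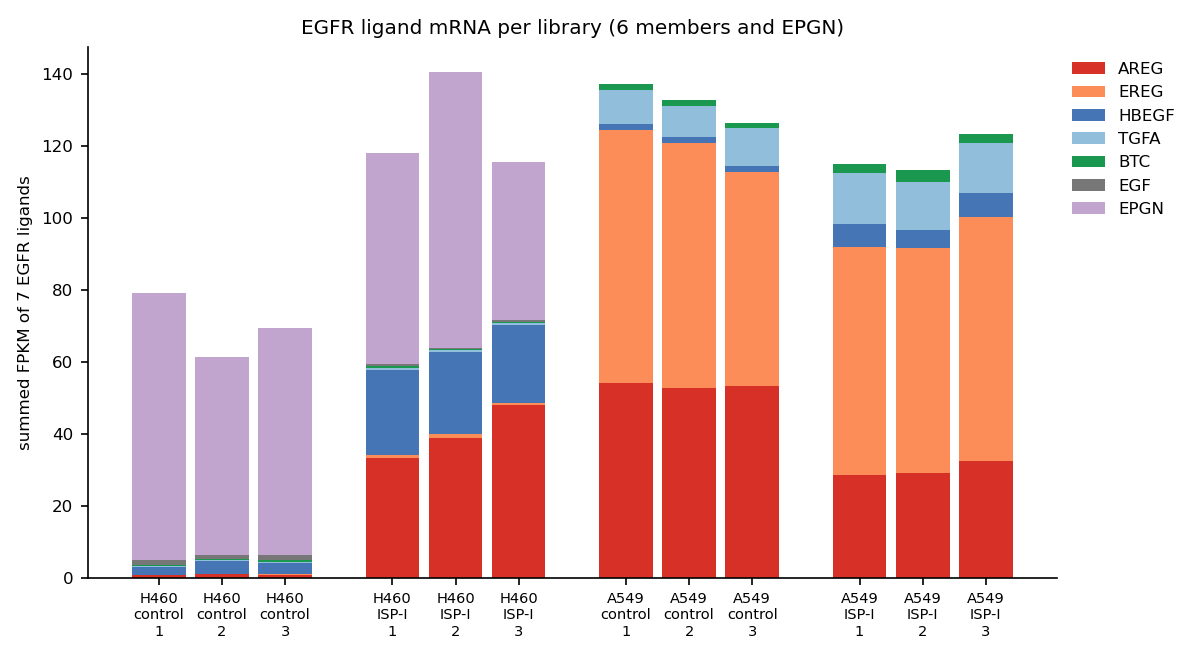
Summed FPKM of 7 EGFR ligand genes (6 members and EPGN) in each of the 12 libraries, with 1 stacked bar per library and a color per gene. EPGN fills most of the H460 control bars, AREG and HBEGF take up much of the H460 bars after ISP-I, and EREG and AREG fill the A549 bars.

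EGFR was the most abundant receptor member in A549 and was higher after ISP-I in both lines. A549 controls had 42.8, 44.3 and 36.3 FPKM and treated cells 80.3, 74.8 and 75.7. That is a ratio of 1.87 and a log2 change of 0.89 (SE 0.0865), without overlap. H460 controls had 3.61, 3.67 and 4.21 FPKM, and H460 ISP-I libraries had 11.0, 12.9 and 7.99. The H460 ratio was 2.77 and the log2 change 1.25 (SE 0.166), and every treated H460 library stayed below every A549 control. The A549 level was 10.7 times that of H460 in controls and 7.24 times after ISP-I.

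ERBB2 had the largest decrease of the members in both lines on the log2(FPKM + 1) scale, though the plain ratio of the much lower ERBB3 was larger in A549. H460 controls had 6.19, 6.69 and 7.21 FPKM and treated H460 0.981, 0.902 and 0.823, so that the control mean was 7.43 times the treated mean (log2 change -2.02, SE 0.107). A549 controls had 11.0, 11.8 and 11.5 FPKM and treated A549 5.11, 4.81 and 4.90, a control mean 2.32 times the treated mean (log2 change -1.07, SE 0.0689). No group overlapped another, and the distance between the lines was 1.71 times in controls and 5.48 times after ISP-I.

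ERBB3 was near its detection limit. Control H460 had 0.197, 0.238 and 0.266 FPKM (25 to 35 reads) and treated H460 0.0633, 0.0544 and 0.0458 (6 to 10 reads). A549 had 0.398, 0.477 and 0.330 FPKM (43 to 62 reads) in controls and 0.152, 0.0649 and 0.126 (9 to 20 reads) after ISP-I. Neither line overlapped, and the summed reads were 92 and 24 in H460 and 155 and 45 in A549. The control level was 4.29 times the treated level in H460 (95% exact interval 2.69 to 6.98) and 3.52 times in A549 (2.53 to 5.06), intervals that cover counting error only. The log2 changes, drawn toward 0 by the pseudocount, were -0.23 (SE 0.0530) and -0.33 (SE 0.0630). ERBB4, the remaining receptor of the family, had a mean of at most 0.0084 FPKM in any group and was not tested.

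ERRFI1, the feedback inhibitor, was higher after ISP-I in both lines. H460 controls had 8.23, 8.84 and 8.69 FPKM and treated cells 34.3, 36.0 and 27.8, a ratio of 3.81 and a log2 change of 1.81 (SE 0.127). A549 controls had 26.8, 25.0 and 21.1 FPKM and treated cells 42.7, 40.0 and 42.4, a ratio of 1.72 and a log2 change of 0.76 (SE 0.0916). The groups were separated in both lines, and in H460 the treated libraries lay above all A549 controls. The A549 level was 2.83 times the H460 level in controls and 1.28 times after ISP-I, in FPKM as deposited. Median-of-ratios scaling raises H460 ISP-I levels and lowers those of A549. It would thus bring the ISP-I groups of the lines together, so that A549 being above H460 after ISP-I is not secure. The ratio itself was not computed under that scaling. Whether the counting used strand is not given in the sources used here. Reads where genes overlap on opposite strands could thus be left out or counted for the wrong gene. Of ERBB2, 571 exon bases (5.53%) overlap MIEN1 and 144 (1.40%) PGAP3. Of EGFR, 186 (1.17%) overlap EGFR-AS1, and 155 of ERRFI1 (3.71%) overlap a long noncoding RNA.

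Ranked within a group by mean FPKM, control H460 ran from ERRFI1, ERBB2, EGFR and HBEGF at the top (8.59 to 3.03 FPKM) to EREG at the bottom. Of these 4, the ranges of EGFR and HBEGF overlapped. With ISP-I, H460 was led by AREG and ERRFI1, which overlapped, then HBEGF and EGFR, and ERBB2 had moved down beside EREG, TGFA, EGF and BTC, each at a mean below 1 FPKM. Control A549 was led by EREG, AREG, EGFR and ERRFI1 (65.9 to 24.3 FPKM), none overlapping its neighbour. Treated A549 was led by EGFR, EREG, ERRFI1 and AREG (76.9 to 30.02 FPKM), again without overlap, while ERBB2 (4.94 FPKM) overlapped HBEGF (6.05 FPKM).

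The log2 change in H460 minus that in A549 was 5.31 for AREG (SE 0.170), 1.12 for HBEGF (SE 0.188) and 1.05 for ERRFI1 (SE 0.155), the 3 members with a difference over 1. These 3 met the rule applied to all genes for the difference (over 1 in size and adjusted p under 0.05), a label only, since the members were selected on these values. Of all 13953 genes in that fit, 5.93% met it in the positive and 10.1% in the negative direction, and with median-of-ratios scaling the positive share of calls was 61.1% against 37.0%. HBEGF lost that label without H460 control library 1 (0.97), and ERRFI1 without H460 ISP-I library 2 (0.97) or A549 control library 1 (0.97). EREG had 0.78 (SE 0.131), BTC -0.55 (SE 0.149), EGF -0.60 (SE 0.0864) and ERBB2 -0.95 (SE 0.111). In this fit EGFR (0.35, SE 0.196), TGFA (-0.10, SE 0.119) and ERBB3 (0.10, SE 0.0738) had differences below 2 times their SE. That of EGFR, a gene at 3.61 FPKM or more in every library, was 0.64 with median-of-ratios scaling and 0.86 with voom. The differences of low genes depend on the scale: with a pseudocount of 0.1 that of EREG was 2.54 and that of TGFA 0.60, and with voom EREG had 4.10, TGFA 1.22 and EGF 0.67. ERBB2 had -1.57 and -1.36. EREG and ERBB2 met the rule under both settings, and TGFA with voom. AREG was the only member separated between the groups in both lines in opposite directions.

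**Figure D3:**
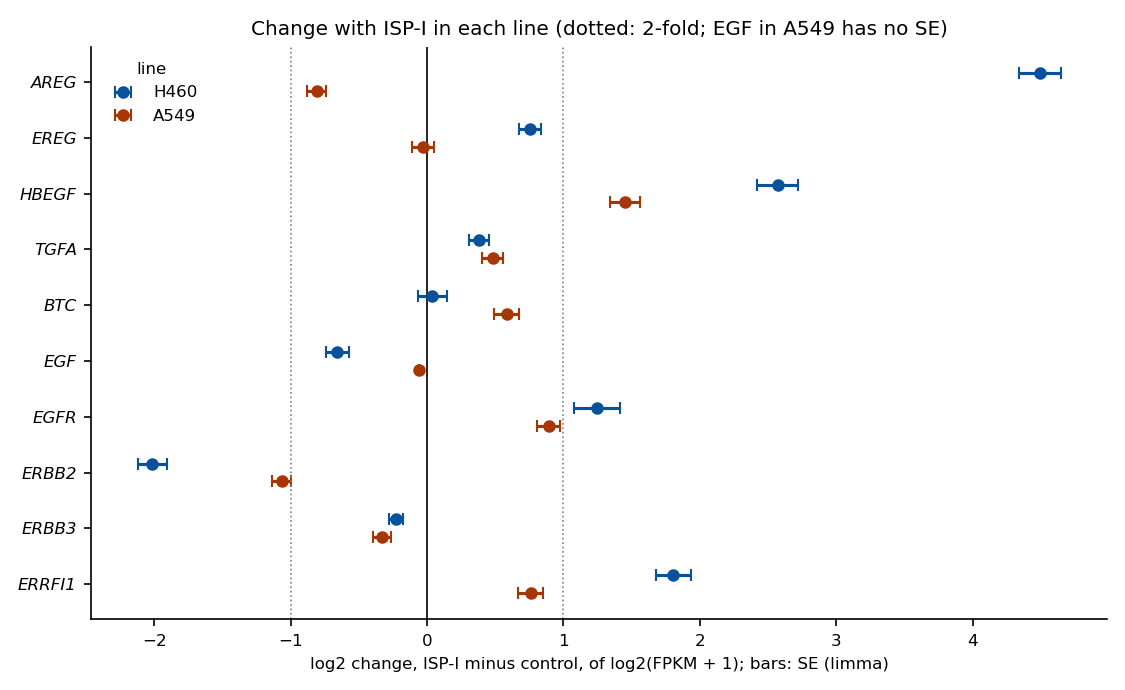
Change of each member with ISP-I (difference of log2(FPKM + 1), ISP-I minus control) in H460 and A549, with the limma SE as bars and 2-fold marked by dotted lines. AREG lies at 4.50 in H460 and -0.81 in A549, HBEGF, EGFR and ERRFI1 are above 0 and ERBB2 is below -1 in both lines.

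Around the ligand cluster, 11 genes that are no members lie within 500000 bases. They include CXC chemokines, among them CXCL1, CXCL2 and CXCL3, which attract neutrophils. In H460, CXCL2 and CXCL3 were called higher of 7 neighbours tested, and with a pseudocount of 0.1 and with voom 4 and 5 neighbours were. CXCL2 rose from 31.3, 31.8 and 34.0 FPKM to 489.7, 399.8 and 860.3, a log2 change of 4.05 (SE 0.258, adjusted p = 3.22e-06). CXCL3 rose from a mean of 10.7 to 42.6 FPKM (log2 change 1.83, SE 0.246, adjusted p = 0.000211). Both, like AREG and CXCL1, were highest in H460 ISP-I library 3, where EPGN was lowest, and without that library the changes of CXCL2 and CXCL3 were 3.73 and 1.53. CXCL1 was 150.6 and 312.5 FPKM by group means in H460, just short of the fold set for a call (adjusted p = 0.00487). The other H460 changes were 0.87 for PARM1, 0.70 for MTHFD2L and -0.13 for CXCL5, beside that of EPGN. PARM1 had group means of 0.0765 and 0.965 FPKM, so its change was drawn toward 0 by the pseudocount. In A549, CXCL1 was the 1 neighbour called of 7 tested, and it fell from 21.0 to 6.74 FPKM (adjusted p = 1.18e-05), while CXCL2 was 10.1 and 9.96 FPKM. The median change of the neighbours tested was 0.87 in H460 and -0.12 in A549, against -0.15 and 0.02 over all genes. The difference between the lines was called for CXCL2 (4.08, adjusted p = 4.01e-07), CXCL1 (2.51, adjusted p = 1.08e-05) and CXCL3 (2.29, adjusted p = 3.43e-05) of 8 tested. EPGN, EREG, AREG and BTC lie beyond the chemokines in that order, with H460 changes of -0.13, 0.75, 4.50 and 0.04.

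**Figure D4:**
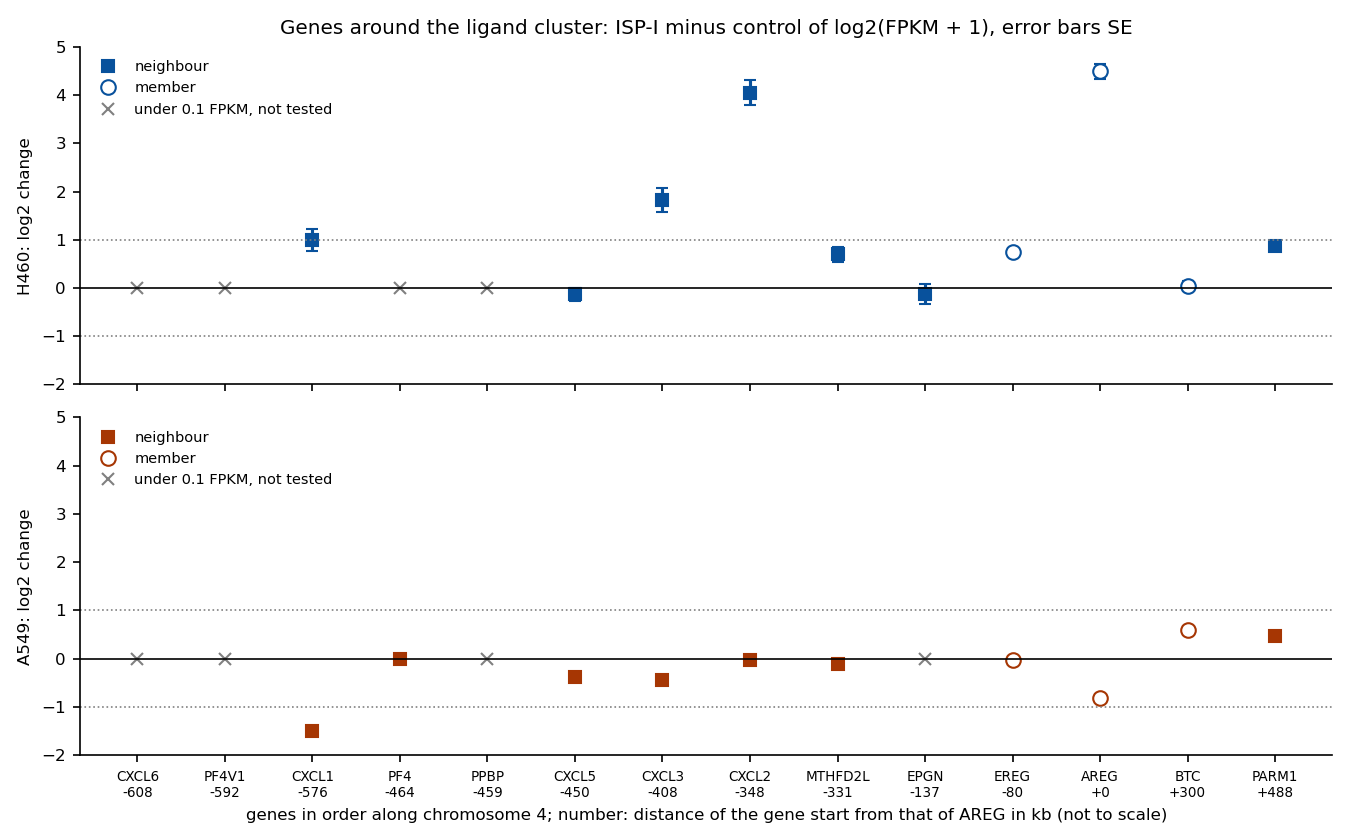
Change with ISP-I of 14 genes in their order along chromosome 4, H460 above and A549 below, as ISP-I minus control of log2(FPKM + 1) with SE (squares: neighbours, open circles: members, crosses: under the filter). In H460, CXCL2 and AREG are above 4 while EPGN and BTC are near 0, and in A549 CXCL1 and AREG are the lowest points.

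Other genes of the pathway were taken from 4 lists of 53 genes, written from general knowledge but with earlier results of these data known. In H460, 50 were tested, of which 3 were called higher and 8 lower with a median change of -0.15 beside -0.15 over all genes. The balance turned with the processing, to 7 higher and 6 lower with median-of-ratios scaling and 13 higher and 7 lower with voom, and without H460 ISP-I library 3 it was 4 and 9. In A549, 49 were tested, with 1 called higher, 2 lower and a median of -0.01 beside 0.02 over all genes. There, 5 were called lower with a pseudocount of 0.1, 6 with voom and 4 without A549 control library 3. The calls by limma are named here with their log2 changes and adjusted p.

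The list of other ERBB ligands and ERBB4 held 6 genes, and of 4 tested in H460 1 was called higher and 1 lower, with a list median of -0.33. Of the 3 tested in A549, NRG1 and NRG4 had an adjusted p under 0.05 with changes below 2-fold on the log2(FPKM + 1) scale, though their control means were 2.07 and 3.08 times the ISP-I means, and the median was -0.30. With a pseudocount of 0.1 and with voom, 2 genes of the list were called lower in A549, and without A549 control library 3, 1 was. NRG1, a neuregulin that binds ERBB3 and ERBB4, rose from 3.11, 3.03 and 3.18 FPKM to 26.8, 29.8 and 20.3 in H460 (2.68, SE 0.148, adjusted p = 1.64e-06). In A549 it went the other way, from 13.8 to 6.69 FPKM by group means, with a log2 change of -0.94 that missed the fold set for a call (adjusted p = 3.34e-05), and the lines differed by 3.62 (adjusted p = 1.71e-08). NRG4, which binds ERBB4, fell from 1.90 to 0.427 FPKM in H460 (-1.01, adjusted p = 0.000154), a call that was lost without H460 control library 3 (-0.86) or ISP-I library 1 or 2 (-0.99 each) and with median-of-ratios scaling (-0.90). The receptors for neuregulins, ERBB3 and ERBB4, were the receptors of the family with the lowest FPKM in these libraries.

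For ligand shedding, 7 genes were tested in each line and FRMD8, which stabilizes the sheddase complex of ADAM17, was called lower in H460 (11.4 to 4.06 FPKM, -1.29, adjusted p = 4.1e-05). ADAM17, the main protease for AREG, EREG, HBEGF and TGFA, was 6.88 and 8.97 FPKM in H460 (0.33, adjusted p = 0.0707) and 5.198 and 5.171 in A549. ADAM10, which releases BTC and EGF, had adjusted p of 0.00422 and 0.0026 at changes of -0.71 and -0.89, and its A549 control mean was 2.03 times the ISP-I mean. Of the 7 genes, 4 had an adjusted p under 0.05 in A549 with changes below 2-fold on the log2(FPKM + 1) scale, all lower. In H460 4 of them were also lower at that level. The share of all genes at that level was not counted, so nothing is read from these numbers. In A549, 1 gene was called lower with voom or without A549 control library 3. The list medians were -0.43 and -0.32, against -0.15 and 0.02 over all genes.

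Adaptors and proximal effectors numbered 17, and 3 of them were called lower in H460. PLCG1, the phospholipase that docks on the receptors, fell from 10.3 to 1.77 FPKM (-2.03, adjusted p = 1.93e-06). VAV2, a guanine nucleotide exchange factor, fell from 10.3 to 3.53 FPKM (-1.32, adjusted p = 1.64e-05). GRB2, the adaptor that links the receptor to RAS, fell from 50.5 to 24.6 FPKM (-1.01, adjusted p = 5.29e-05), but was not called without H460 control library 2 (-0.97) or ISP-I library 2 (-0.98) or with median-of-ratios scaling (-0.74). In A549, 10 of the 17 had an adjusted p under 0.05 (4 higher, 6 lower), with changes below 2-fold on the log2(FPKM + 1) scale. In H460, 13 had an adjusted p under 0.05 (5 higher, 8 lower). The share of all genes at that level was not counted, so nothing is read from these numbers. With a pseudocount of 0.1 and with voom, 1 gene of the list was called lower in A549. The difference between the lines was called for PLCG1 (-1.80, adjusted p = 2.39e-07) and for GRB7, an adaptor of ERBB2 (1.15, adjusted p = 1.21e-06), which was 2.92 and 1.04 FPKM in A549 and 0.0934 and 0.268 in H460. The list medians were -0.20 in H460 and -0.17 in A549.

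Of 23 genes of receptor down-regulation and turnover, 22 were tested in each line. In H460, 2 were called higher and 3 lower, which became 5 and 3 with median-of-ratios scaling and 8 and 3 with voom. SOCS5, an adaptor for degradation of EGFR, rose from 3.35 to 11.9 FPKM (1.56, adjusted p = 5.83e-05) and PTPRK, a phosphatase of EGFR, from 2.63 to 10.2 (1.59, adjusted p = 5.48e-05). PTPRJ, another such phosphatase, fell from 10.6 to 2.84 FPKM (-1.60, adjusted p = 5.96e-06). EPN1, an endocytic adaptor, fell from 10.5 to 2.28 (-1.81, adjusted p = 3.11e-06), and RNF41, a ubiquitin ligase for ERBB3, from 11.2 to 3.19 (-1.55, adjusted p = 1.14e-05). In A549, PTPRJ was again called lower (14.9 to 6.60 FPKM, -1.06, adjusted p = 2.83e-05), together with SH3KBP1, a partner of the CBL ligases (21.3 to 7.19, -1.44, adjusted p = 1.1e-05). SOCS4 was called higher in A549 (7.04 to 15.0 FPKM, 1.02, adjusted p = 0.000889), a call lost without A549 control library 3 (0.81) or ISP-I library 3 (0.97). The list medians were 0.31 and 0.07. The difference between the lines was called for RNF41, EPN1, PTPRK and SOCS5 on this list and for FRMD8 on the shedding list. SOCS5 was not called there without H460 control library 2, H460 ISP-I library 2 or A549 control library 2 (0.98, 0.94 and 0.95), nor FRMD8 without H460 ISP-I library 2 or A549 control library 1 (-0.96 and -0.95).

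**Figure D5:**
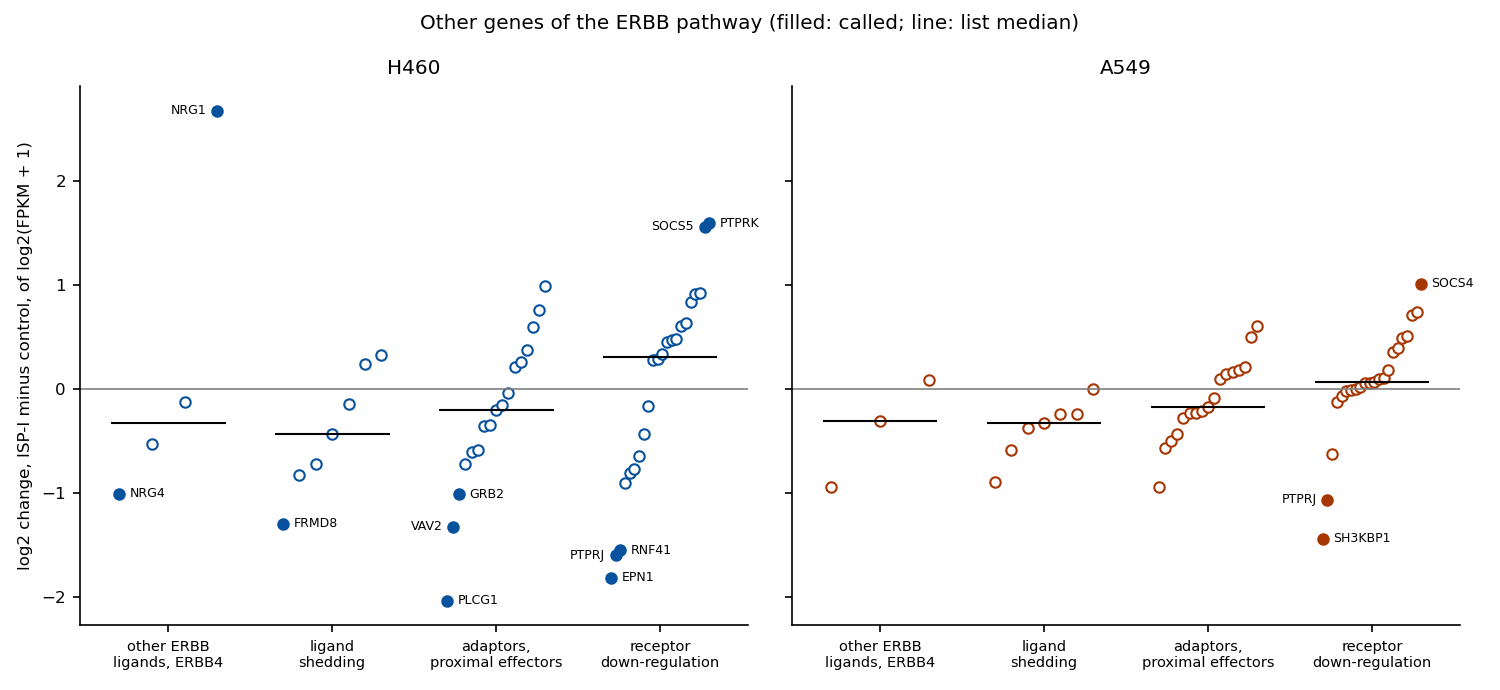
Change with ISP-I of the other genes of the ERBB pathway in 4 lists, H460 left and A549 right (difference of log2(FPKM + 1)), with called genes filled and named and the list median as a line. NRG1 at 2.68 is the highest point and PLCG1 at -2.03 the lowest in H460, and SH3KBP1 at -1.44 is the lowest in A549.

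For the 8 members whose mean FPKM in all 12 libraries was at least 1, the genes of most similar profile were sought among 10593 genes. Likeness was the root mean square (RMS) difference of log2(FPKM + 1) over the 12 libraries, after each gene was centered on its own mean. AKAP12, a kinase anchor protein, was among the 2 genes nearest to AREG (RMS 0.628, against a spread of AREG itself of 1.98), with group means of 1.47 and 42.4 FPKM in H460 and 36.5 and 54.3 in A549. Its lowest mean was in H460 controls, as for AREG, while the lower A549 mean of AREG after ISP-I was not matched in direction by AKAP12. EREG was closest to EHD2 (0.242) and SLC22A3 (0.282), and TGFA to STK32B (0.150) and SULF2 (0.163), all far higher in A549 than in H460. HBEGF was closest to AP5Z1 (0.167) and ZNF622 (0.190), and the H460 means of ZNF622 were 47.3 and 251.9 FPKM, its A549 means 33.9 and 78.4. BTC was closest to FAM110B (0.115) and GNAI1 (0.140), and EGFR to the ephrin receptor EPHB2 (0.154) and to RASEF (0.272). ERBB2 was closest to MBOAT7 (0.112) and to the mitotic kinase MELK (0.113), whose means were 25.7 and 5.72 FPKM in H460 and 42.1 and 19.0 in A549. ERRFI1 was closest to SYNJ2 (0.182) and RUSC2 (0.193). These distances describe the 12 libraries, which share 2 lines and 2 treatments, and were not tested.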

How the data were processed

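RNA of H460 and A549 cells, non-treated or treated with ISP-I (10 µM, 48 h), was sequenced as 150 bp paired reads. The authors deposited FPKM, made with FastQC (read filtering), HISAT2 (alignment to hg38) and HTSeq version 0.9.1 (counting). The annotation and strand setting are not given in the sources used here. The gene lengths in the deposited table are another quantity (bases, unit other). Multiplied by length, 100% of the values were whole multiples of the worth of 1 read (tolerance 0.01), and these reads were recovered. Reads without molecular identifiers are not independent molecules, and intervals cover counting error only.

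Column names give line and treatment, so libraries were numbered by their order within a group. In each line, log2(FPKM + 1) was compared with limma 3.58.1 (trend, R 4.3.3) for genes averaging 0.1 FPKM or more, with Benjamini-Hochberg adjustment over all genes tested. Lines were compared by the interaction term of line and treatment, fitted to all 12 libraries. The fit was tested on simulated data in which only genes well above that filter were changed, so members with low FPKM were not covered. Plain ratios of a member between treatments use mean FPKM where each group has at least 10 reads summed. Plain ratios between the lines, and those of other genes, use it where both means are at least 0.1 FPKM. Promoters came from RefSeq, and 99.8% of the gene identifiers found in GENCODE v44 (hg38) lay within 100 kb of their place there. Python 3.11.15, pandas 2.3.3 and numpy 2.4.6 were used, and 4 lines of the table that hold no gene were left out.

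The members and gene lists were chosen with earlier results of these data known. Genes named were all members, called genes of each pathway list, called neighbours on chromosome 4, the 2 nearest profiles of each member (1 of those of AREG is not reported here) and the marker genes. ADAM17, ADAM10, EPGN, ERBB4, PARM1, MTHFD2L, CXCL5 and CXCL1 in H460 were named beside these after their values were seen. Alternatives were another pseudocount (0.1), another filter (1 FPKM) or none, median-of-ratios scaling, limma voom on the recovered reads (at least 10 reads in 3 libraries), all 12 libraries in a single fit, each library left out in turn and, chosen after seeing the data, the plain ratio.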

Additional observations from a re-analysis of the deposited data

Results flagged for a closer look

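AREG had a log2 change that was 5.31 higher in H460 than in A549, because every H460 ISP-I library was above every H460 control and every A549 ISP-I library was below every A549 control. No test is given for that difference, since the members were selected on these values, and its size past the rule for all genes is a label only. Differences between the lines that passed the interaction test at an adjusted p under 0.05 and a size over 1 were found in other genes. On the pathway lists they were 3.62 for NRG1, 1.48 for PTPRK, 1.15 for GRB7 and 1.07 for SOCS5 in the positive direction (H460 minus A549), and -1.8 for PLCG1, -1.55 for RNF41, -1.19 for EPN1 and -1.06 for FRMD8 in the negative direction. Next to the ligand cluster they were 4.08 for CXCL2, 2.51 for CXCL1 and 2.29 for CXCL3. Groups of 3 libraries were not searched for outlying single values.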

How the results depend on the processing

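No paired analysis was possible because the columns carry a running number within each line, which is not the replicate number of the sample titles, so no column could be tied to a numbered sample. Among the alternatives run, no member past the call rule and no called pathway gene or neighbour changed direction. Signs turned for BTC in H460 (-0.07 without H460 control library 2), EREG in A549 (0.02 without A549 control library 1) and the line differences of TGFA (0.60 with a pseudocount of 0.1, 0.03 with median-of-ratios scaling, 1.22 with voom) and EGF (0.67 with voom). A pseudocount of 0.1 gave 2322 genes called higher and 3464 lower in H460, 1336 and 1062 in A549, and 1451 positive and 2788 negative for the difference between the lines. On the pathway lists it gave 6 higher in H460, 5 lower in A549 and 8 negative for the difference, among the chromosome 4 neighbours 4 higher and 5 positive, and among the members 3 lower in H460, 2 lower in A549 and 1 negative. Limma voom on the recovered reads gave 3080 genes higher in H460, 1354 higher and 1243 lower in A549 and 2114 positive. On the pathway lists voom gave 13 higher and 7 lower in H460, 6 lower in A549 and 9 positive, among the neighbours 5 higher and 5 positive, and among the members 3 lower in H460, 2 lower in A549, and 5 positive and 1 negative. Median-of-ratios scaling gave 1300 positive and 827 negative differences over all genes, and on the pathway lists 7 higher and 6 lower in H460, 0 higher in A549 and 2 negative. Leaving out 1 library gave 0 to 1 pathway genes higher in A549 (0 without control library 3 or ISP-I library 3) and 2 to 4 lower (4 without control library 3).

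Calls were also lost for the line difference of FRMD8 (-0.80 with median-of-ratios scaling, -0.93 with voom, -0.96 without H460 ISP-I library 2, -0.95 without A549 control library 1), EPN1 (-0.95 with median-of-ratios scaling) and SOCS5 (0.98, 0.94 and 0.95 without H460 control library 2, H460 ISP-I library 2 and A549 control library 2), and for GRB2 in H460 with voom (-0.75) and SOCS4 in A549 with median-of-ratios scaling (0.98). At this depth, EGF and EPGN in A549, and EREG in H460 controls, rest on a few reads per library.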
